A study of Mus musculus with 22 samples.

Results

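Kinesin motor genes were compared between whole brains of the inbred mouse strains DBA/2J (D2) and C57BL/6J (B6). The members were the genes whose only symbol in the array's annotation was Kif followed by a digit, which left out the Kifc genes and the adaptor Kifap3. This rule found 37 of the 22276 gene symbols that stood alone on a probeset. The annotation also held Kif18b and a second part of Kif26b under older clone names, and these were not members.

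Total RNA of naive adult male mice, 12 D2 and 10 B6, was hybridised to Affymetrix Mouse Exon 1.0 ST arrays, which carry probesets along the exons of each gene. Each array held the brain of 1 mouse, and p-values weigh the strain difference against how mice of a strain vary. Neither strain carried an engineered allele or received a treatment according to the labels, and the age is given only as adult. Each strain is 1 inbred genotype, and the probes were designed on B6 sequence, so a D2 variant under a probe can lower the D2 signal without a change in the transcript. Whether such variants lie under the kinesin probes was not tested.

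Kinesins are motor proteins that burn ATP to walk along microtubules or to take them apart. Most move towards the plus end of the microtubule, which in an axon points to the synapse, and so carry vesicles, mitochondria, receptors and RNA away from the cell body. Others build the mitotic spindle, help the daughter cells to separate, or serve cilia. In the adult brain, where few cells divide, the cargo motors of neurons are the best known members.

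The probesets were judged by their log2 value, and those with a mean over the 22 arrays at or above the median of all probesets, a log2 value of 1.44, were kept. The kinesin genes had 1132 probesets. Of these, 3 had no value on any array and 800 were kept (70.7%). Among the kinesin probesets closest to this level, those of Kif15 (1.43) and Kif1c (1.43) lay just below and those of Kif24 (1.45) and Kif27 (1.47) just above. A gene's value was the median of its kept probesets on each array, and 33 of the 37 genes had the 3 kept probesets needed for it. The 4 without a value were spindle motors: Kif15 and Kif20b with 2 kept probesets each, and Kif2b and Kif4b, whose only probeset was not kept. Of the probesets of 13 cargo motors, 96.1% were kept, and of those of 12 spindle and cytokinesis motors 21.2%.

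The array medians were 1.48 ± 0.018 in D2 (SD, n = 12) and 1.44 ± 0.018 in B6 (SD, n = 10), so the level of all probesets moved with strain. The median of all gene values went the other way, at 4.40 to 4.73 on D2 arrays and 4.52 to 4.80 on B6 arrays. Of the 22 arrays, 4 carried the file letter B, 2 from each strain, and the rest the letter A. The mean log2 level of 5 neuronal markers was 8.84 to 9.22 in D2 and 8.91 to 9.23 in B6, and that of 5 markers of tissues other than brain at most 2.99 in D2 and 3.02 in B6. Rbfox3 was not measured. Since each sample was a whole brain, fewer cells of a type and less RNA per cell cannot be told apart.

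Of the 33 kinesins measured, 3 were higher and 5 lower in D2 (limma, Benjamini-Hochberg adjusted p under 0.05 over all 16016 genes), so 24.2% were called. Over all genes 10.8% were called, 412 (2.57%) higher and 1323 (8.26%) lower. These shares were not matched for probeset number: kinesins had a median of 21 kept probesets and all genes one of 12. Nor were they matched for the smaller SD of most kinesins, given below. Of the 25 kinesins not called, 3 had an unadjusted p under 0.05. Kif17, Kif5a, Kif5b, Kif16b and Kif6 fell, and Kif14, Kif19a and Kif13a rose. The median difference of the 33 genes was -0.07 on the log2 scale, and that of all genes -0.05. No kinesin differed by more than 0.74, and the median size of the difference was 0.15 for kinesins and 0.13 for all genes. When each array was centred on the median of its genes, which moved the median difference of all genes to 0.05, 3 kinesins were higher and 3 lower, and over all genes 1023 were higher and 756 lower. Kif5b and Kif16b then lost their calls. A fit that held the array median as covariate called Kif17 alone, 1 of 33 kinesins beside 3.09% of all genes (266 higher, 229 lower). The larger kinesin share was not seen there. The array median itself moved with strain, so this fit cannot fully separate it from strain. A call lost there does not show that the strains were alike. With no filter on dim probesets the kinesin calls were 0 higher and 5 lower of 35 measured, and Kif13a, Kif14 and Kif19a lost theirs. Over all genes 7.75% were called there (373 higher, 1180 lower).

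**Figure D1:**
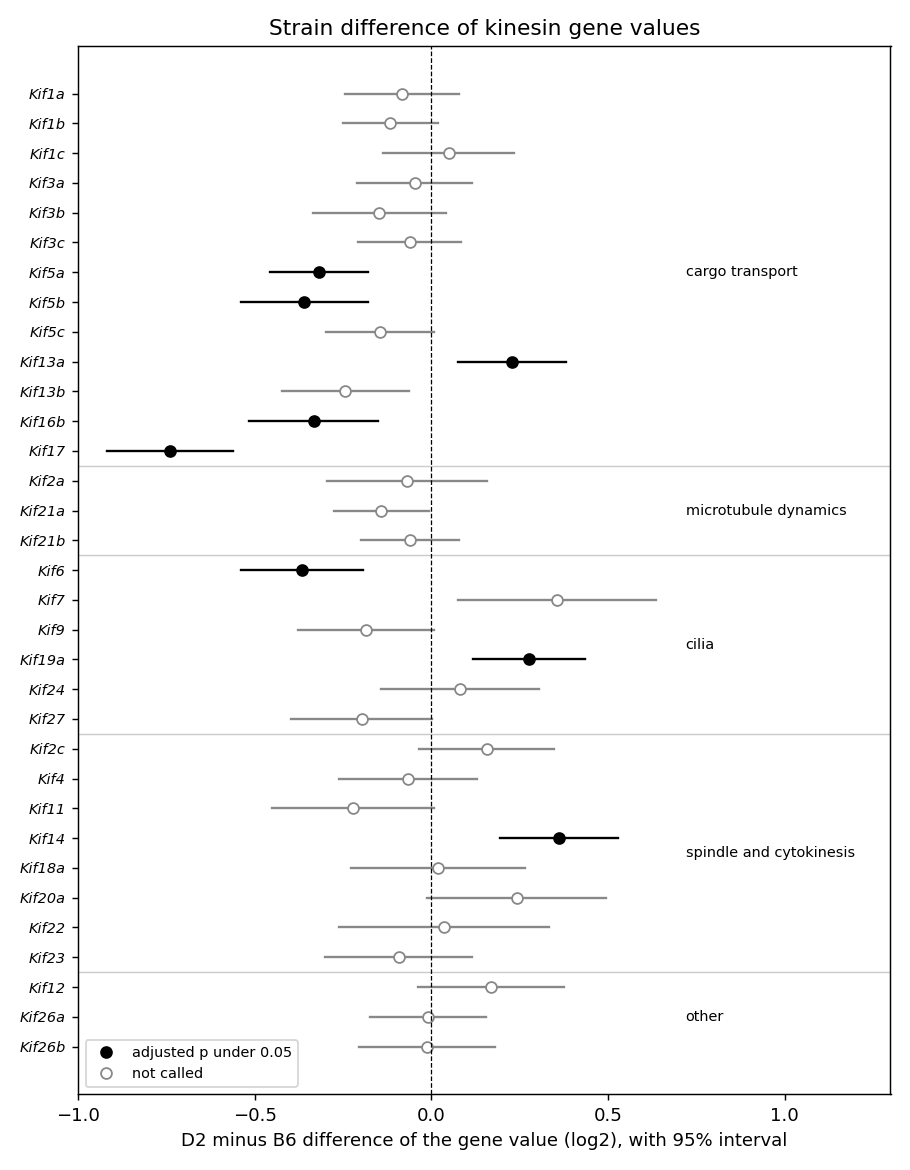
Difference of the gene value between D2 and B6 (D2 minus B6, log2, x axis) for the 33 kinesins measured, grouped by role, with 95% intervals from limma. Filled points are called, and Kif17 at -0.74 lies farthest from 0.

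Among the cargo motors, 1 of 13 rose and 4 fell, and the differences of 11 of 13 lay below 0, with a median of -0.15. Over all genes 61.9% of differences were below 0. Centring turned Kif1a (0.02), Kif3a (0.05) and Kif3c (0.04) to above 0. The promoters of the called cargo motors are shown for their sequence, and their part in the strain differences was not tested. They are the 250 bases before the RefSeq start (GRCm38.p6), for the 3 of these 5 genes with an entry. They come from B6 reference sequence and show no D2 variant. Capitals mark matches, on either strand, to the GC box GGGCGG, the CCAAT box, the TATA box TATAAA and the cAMP response element TGACGTCA, none of which overlapped another here.

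Kif17, chr4:138262001-138262250, plus strand: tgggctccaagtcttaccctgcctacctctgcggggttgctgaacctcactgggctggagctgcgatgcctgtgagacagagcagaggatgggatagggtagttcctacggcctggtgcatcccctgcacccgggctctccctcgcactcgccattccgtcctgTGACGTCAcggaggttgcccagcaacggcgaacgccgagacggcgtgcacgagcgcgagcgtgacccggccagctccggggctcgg
Kif16b, chr2:142901465-142901714, minus strand: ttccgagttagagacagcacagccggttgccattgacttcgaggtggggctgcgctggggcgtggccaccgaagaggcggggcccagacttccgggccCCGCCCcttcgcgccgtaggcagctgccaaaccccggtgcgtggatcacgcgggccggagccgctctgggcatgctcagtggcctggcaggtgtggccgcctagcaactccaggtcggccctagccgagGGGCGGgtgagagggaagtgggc
Kif13a, chr13:46929719-46929968, minus strand: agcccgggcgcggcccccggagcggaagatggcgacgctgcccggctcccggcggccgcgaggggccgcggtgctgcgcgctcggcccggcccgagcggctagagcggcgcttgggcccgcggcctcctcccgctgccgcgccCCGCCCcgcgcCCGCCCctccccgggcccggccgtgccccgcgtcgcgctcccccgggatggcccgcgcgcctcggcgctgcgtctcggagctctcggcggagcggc

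The Kif17 window held 1 cAMP response element, a motif found in 1.55% of the 32851 promoter windows of this length, and none of the other motifs. The windows of Kif16b and Kif13a each held 2 GC boxes, a motif present in 32.7% of windows. CCAAT occurs in 33.8% and TATAAA in 12.4% of windows, and neither was in the 3 shown. The G and C content was 66.4% for Kif17, 70.4% for Kif16b and 85.6% for Kif13a, against a median of 52.4% over all windows. These matches describe letters only.

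Kif17 is a homodimeric motor of the kinesin-2 family that carries NMDA receptor subunits along dendrites and also works in cilia. Its gene value in D2 brains was lowest at 3.17, with a median of 3.47 and a highest value of 3.94, and in B6 brains the lowest was 3.98, the median 4.27 and the highest 4.46. No D2 mouse reached the lowest B6 mouse, and the highest D2 value, in replicate 21, lay apart from the next at 3.63. The mean was 3.49 ± 0.20 in D2 (SD, n = 12) and 4.24 ± 0.18 in B6 (SD, n = 10), a difference of -0.74 ± 0.086 (SE), or 1.67-fold more in B6 (limma adjusted p = 6.7e-07). It was the only 1 of the 33 kinesins (3.03%) that was called without overlap of the strains, against 1.18% of all genes. Among the letter A arrays Kif17 averaged 3.50 in D2 and 4.20 in B6, and among the letter B arrays 3.48 in D2 and 4.37 in B6.

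The fall of Kif17 was seen in most of its kept probesets, though 13 were not called on their own. Of its 22 kept probesets, 20 had a lower mean in D2, 9 of them called on their own (adjusted p under 0.05 over all kept probesets), and no probeset was called higher. The own differences ran from -2.75 to 0.37, with a median of -0.61. With the probesets of a different splicing index left out, the gene difference was -0.67, and it stayed called. Those probesets were picked from these same data, so this is no independent check.

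**Figure D2:**
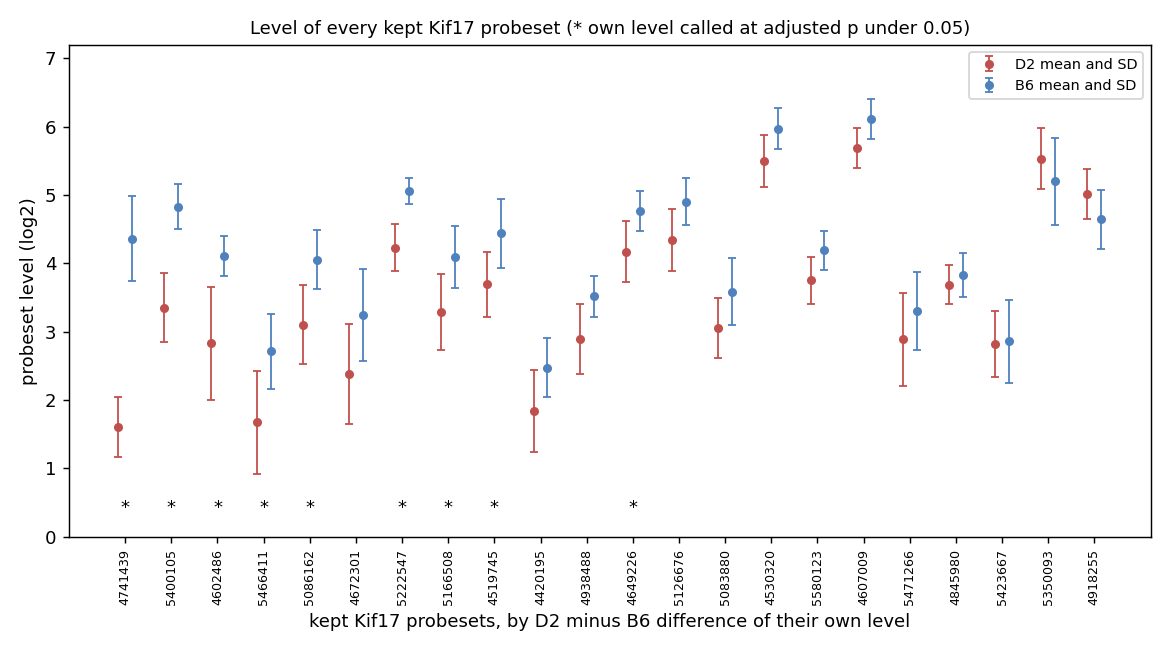
Log2 level (y axis) of each of the 22 kept Kif17 probesets (x axis, by probeset number, ordered by their D2 minus B6 difference) as mean and SD over 12 D2 and 10 B6 mice. The D2 mean lies below the B6 mean in 20 of 22, and most of all in probeset 4741439, at 1.61 in D2 and 4.36 in B6.

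Kinesin-1 is the classic axonal motor, a dimer of heavy chains encoded by Kif5a, Kif5b and Kif5c. Kif5a and Kif5c are largely neuronal and Kif5b is found in most cells. The Kif5a values ran from 8.92 to 9.27 in D2, with a median of 9.15, and from 9.05 to 9.56 in B6, with a median of 9.52. The strains overlapped only through B6 replicate 6, which at 9.05 lay far below the next B6 mouse at 9.37. Kif5a was 0.32 ± 0.067 (SE) lower in D2, with a difference of -0.32 (limma adjusted p = 0.0022), and -0.36 without that B6 array. Of its 37 probesets 35 had a lower mean in D2, and 14 were called lower. Kif5a was lower on letter B arrays in both strains, at 9.00 in D2 and 9.21 in B6, against 9.18 in D2 and 9.53 in B6 on letter A arrays. B6 replicate 6 carries the letter B.

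Kif5b ran from 7.18 to 7.76 in D2 (median 7.47) and from 7.51 to 8.21 in B6 (median 7.76). Its difference was -0.36 ± 0.088 (SE, limma adjusted p = 0.0077), and the strains overlapped between 7.51 and 7.76. File letter went with its level in both strains: it averaged 7.41 in D2 and 7.76 in B6 on letter A arrays, and 7.76 in D2 and 8.14 in B6 on letter B arrays, so that both letters gave a lower D2 mean. Of its 40 probesets 38 were lower in D2, 8 of them called.

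Kif5c ran from 7.78 to 8.25 in D2 (median 8.05) and from 7.86 to 8.36 in B6 (median 8.21). Its difference of -0.15 ± 0.074 (SE) had a 95% interval from -0.30 to 0.01 and was not called, and none of its 33 probesets was called, though 29 had a lower D2 mean. Whether the kinesin-1 genes differed from each other in their strain difference was tested within each mouse, for 3 pairs. The strain difference of Kif5a was 0.17 further below 0 than that of Kif5c (Kif5a minus Kif5c, -0.17 ± 0.081 SE; permutation test, two-sided, p = 0.0466, adjusted over the pairs 0.0699). For Kif5b minus Kif5c it was -0.21 ± 0.090 (permutation p = 0.0228, adjusted 0.0685), and for Kif5a minus Kif5b 0.04 ± 0.13 (permutation p = 0.721). After adjustment no pair was shown to differ.

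Kif16b, a kinesin-3 motor that moves early endosomes, ran from 3.86 to 4.41 in D2 (median 4.17) and from 4.06 to 4.91 in B6 (median 4.48). Its difference was -0.33 ± 0.088 (SE, limma adjusted p = 0.0143), and the strains overlapped between 4.06 and 4.41. Of its 30 probesets 26 had a lower D2 mean and 5 were called lower. The call rested partly on 1 probeset described below: with it left out the difference was -0.20 (adjusted p = 0.196). That probeset was picked from these same data for its lower index in D2, so leaving it out favours a smaller fall.

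Kif13a, a kinesin-3 motor that brings receptors from the Golgi to the cell surface, was the cargo motor that rose. It ran from 4.72 to 5.32 in D2 (median 4.98) and from 4.43 to 4.92 in B6 (median 4.80), a difference of 0.23 ± 0.074 (SE, limma adjusted p = 0.046). Of its 43 probesets 36 had a higher D2 mean and 2 were called higher. The call was close to the threshold. It was lost under 9 of 13 alternatives, among them the letter A arrays alone (0.14) and the data without B6 replicate 6 (0.19), the lowest B6 mouse for this gene too.

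**Figure D3:**
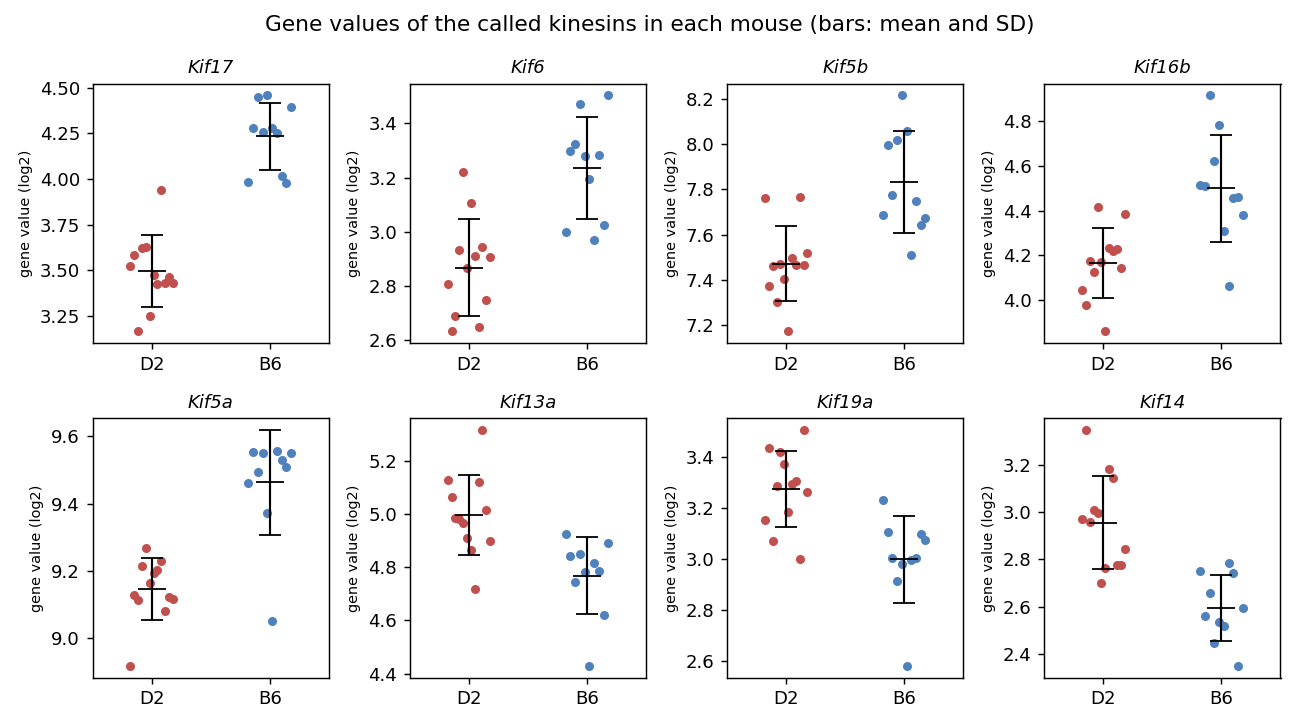
Gene value (log2, y axis) of the 8 called kinesins in each of 12 D2 and 10 B6 mice, with mean and SD as bars. The D2 and B6 mice are fully apart for Kif17, and B6 replicate 6 is the low B6 point of Kif5a, Kif13a and Kif19a.

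The other cargo motors were not called. Kif1a, which brings synaptic vesicle precursors and dense-core vesicles to the synapse, ran from 8.73 to 9.17 in D2 (median 8.88) and from 8.60 to 9.21 in B6 (median 9.04), a difference of -0.08 with a 95% interval of -0.25 to 0.08. Kif1b, whose isoforms carry mitochondria and synaptic vesicle precursors, ran from 8.41 to 8.88 in D2 (median 8.65) and from 8.61 to 8.89 in B6 (median 8.79), at a difference of -0.12 (interval -0.25 to 0.02). For both genes the intervals leave out a change as large as that of Kif17, and the strains overlapped. For Kif1b, D2 replicates 13, 14, 15 and 19 lay below the lowest B6 mouse.

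Kif3a, Kif3b and Kif3c are heavy chains of heterodimeric kinesin-2, which carries cargo in axons and builds cilia. Kif3a ran from 6.63 to 7.27 in D2 (median 6.96) and from 6.69 to 7.21 in B6 (median 7.00), a difference of -0.05. Kif3c ran from 6.52 to 6.93 in D2 (median 6.72) and from 6.51 to 7.00 in B6 (median 6.78), a difference of -0.06. Kif3b was at -0.15. The strains overlapped for these motors. The 95% interval of Kif17, of the same family, ran from -0.92 to -0.56, and that of Kif3b from -0.34 to 0.04. The difference between these genes was not tested.

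Kif1c, a kinesin-3 motor, was at 0.05 and Kif13b, which transports the scaffold protein Dlg1, at -0.24 (adjusted p = 0.072). Kif13b was called with the mean over probesets, with the filter at the 75th percentile and on the letter A arrays alone, at -0.21, -0.22 and -0.31, while on the 4 letter B arrays it was at 0.05.

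None of the 3 members that act on microtubule dynamics was called by limma, and 1 of them, Kif21a, had an unadjusted p under 0.05. Kif21a, which restrains microtubule growth, ran from 7.15 to 7.55 in D2 (median 7.34) and from 7.33 to 7.69 in B6 (median 7.48), a difference of -0.14 ± 0.066 (SE, adjusted p = 0.174). Its relative Kif21b was at -0.06, and Kif2a, which depolymerises microtubules and limits axon branching, at -0.07. When the arrays were centred, Kif21b (0.04) and Kif2a (0.03) lay above 0, so these genes have no settled direction.

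Of the 6 members that serve cilia, 1 rose and 1 fell. Kif6, a motor of motile cilia in ependymal cells, ran from 2.63 to 3.22 in D2 (median 2.89) and from 2.97 to 3.50 in B6 (median 3.28). Its difference was -0.37 ± 0.084 (SE, limma adjusted p = 0.0045). Only 2 D2 mice lay above the lowest B6 mouse, replicates 19 and 17. Of its 19 probesets 16 had a lower D2 mean and 4 were called lower. With the filter at the 75th percentile the difference was -0.26 (adjusted p = 0.0831).

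Kif19a, which shortens the microtubules of motile cilia and so sets their length, ran from 3.00 to 3.51 in D2 (median 3.29) and from 2.58 to 3.23 in B6 (median 3.01). Its difference was 0.28 ± 0.077 (SE, limma adjusted p = 0.0205), and 0.23 without B6 replicate 6, the outlying low B6 mouse. With no filter on dim probesets it was 0.29 and not called (adjusted p = 0.0554). Kif19a was lower on letter B arrays in both strains, at 3.08 in D2 and 2.78 in B6, against 3.32 in D2 and 3.06 in B6 on letter A arrays. Of its 20 probesets 18 had a higher D2 mean and 2 were called higher. So the called ciliary kinesins went in opposite directions. Both were dim, with means of 2.87 (Kif6) and 3.28 (Kif19a) in D2 and 3.24 and 3.00 in B6. The mean level of the 5 markers of tissues other than brain reached 2.99 in D2 and 3.02 in B6. Low signal therefore limits these 2 calls.

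Kif7, which controls Hedgehog signalling at the tip of the primary cilium, was at 0.36 ± 0.14 (SE, adjusted p = 0.0956). It was called at 0.53 when its probeset with a different index was left out. That probeset was picked from these same data for its lower index in D2, so leaving it out favours a larger rise. Kif9, also of motile cilia, was at -0.19, Kif27 at -0.20 and Kif24, which holds back cilium assembly at the centriole, at 0.08. The markers of ependyma, whose cells carry motile cilia, and of choroid plexus were read as 1 list, which moved with strain. Of 6 measured, 3 fell (Foxj1 by 0.65, Folr1 by 0.61 and Otx2 by 0.49), beside 8.26% of all genes. The mean log2 level of the 6 markers was 4.88 to 5.34 in D2 and 5.38 to 5.63 in B6, without overlap. Their part in the difference of Kif6 was not tested.

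Of the 8 spindle and cytokinesis motors measured, 1 was called. Kif14, which acts in the last step of cell division, ran from 2.70 to 3.35 in D2 (median 2.96) and from 2.35 to 2.78 in B6 (median 2.58). Its difference was 0.36 ± 0.081 (SE, limma adjusted p = 0.0039), and the strains met only between 2.70 and 2.78. The value rested on 8 of its 45 probesets. None of the 8 was called on its own, 6 had a higher D2 mean, and with all probesets the difference was 0.08 (adjusted p = 0.485).

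The other spindle motors were at low signal and were not called: Kif20a (0.24) and Kif23 (-0.09), which work in cytokinesis, Kif11 (-0.22), which pushes spindle poles apart, Kif2c (0.16), which depolymerises kinetochore microtubules, Kif18a (0.02), which damps chromosome movements, and the chromosome-bound Kif22 (0.04) and Kif4 (-0.07). Of 15 markers of proliferating cells, 2 fell and 13 were not called (13.3% called, beside 10.8% of all genes). Bub1b, a spindle checkpoint kinase, fell by 1.34 and the cyclin gene Ccnb2 by 0.68, while Mki67 (0.07) and Top2a (0.05) were not called. The mean log2 level of these markers was 2.33 to 2.52 in D2 and 2.32 to 2.57 in B6. No value above the filter level of 1.44 shows by itself that a gene was expressed, which limits what can be said of this group.

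The remaining members, Kif12 of the kinesin-12 family (0.17) and the atypical kinesins Kif26a (-0.01) and Kif26b (-0.01), were not called, and none had an unadjusted p under 0.05 (limma). Kif12 was called at 0.23 with the mean over probesets and at 0.38 with the filter at the 75th percentile, while with the array median as covariate it was at -0.14 (adjusted p = 0.662).

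Most kinesins varied less between mice of a strain than the median gene. Their median SD was 0.19 in D2 and 0.19 in B6, against 0.25 in D2 and 0.24 in B6 over all genes, and 27 of the 33 in D2 and 22 in B6 had an SD below the median gene. Kif5a varied least in D2 (SD 0.092) and Kif1b least in B6 (SD 0.086), while Kif22 (0.42) and Kif7 (0.38) varied most in D2. These genes differ in signal and in the number of probesets, which were not matched. The median deviation of the kinesins from their strain mean ran from -0.09 (replicate 19) to 0.07 (replicate 17) over the D2 mice and from -0.12 (replicate 6) to 0.09 (replicate 4) over the B6 mice.

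**Figure D4:**
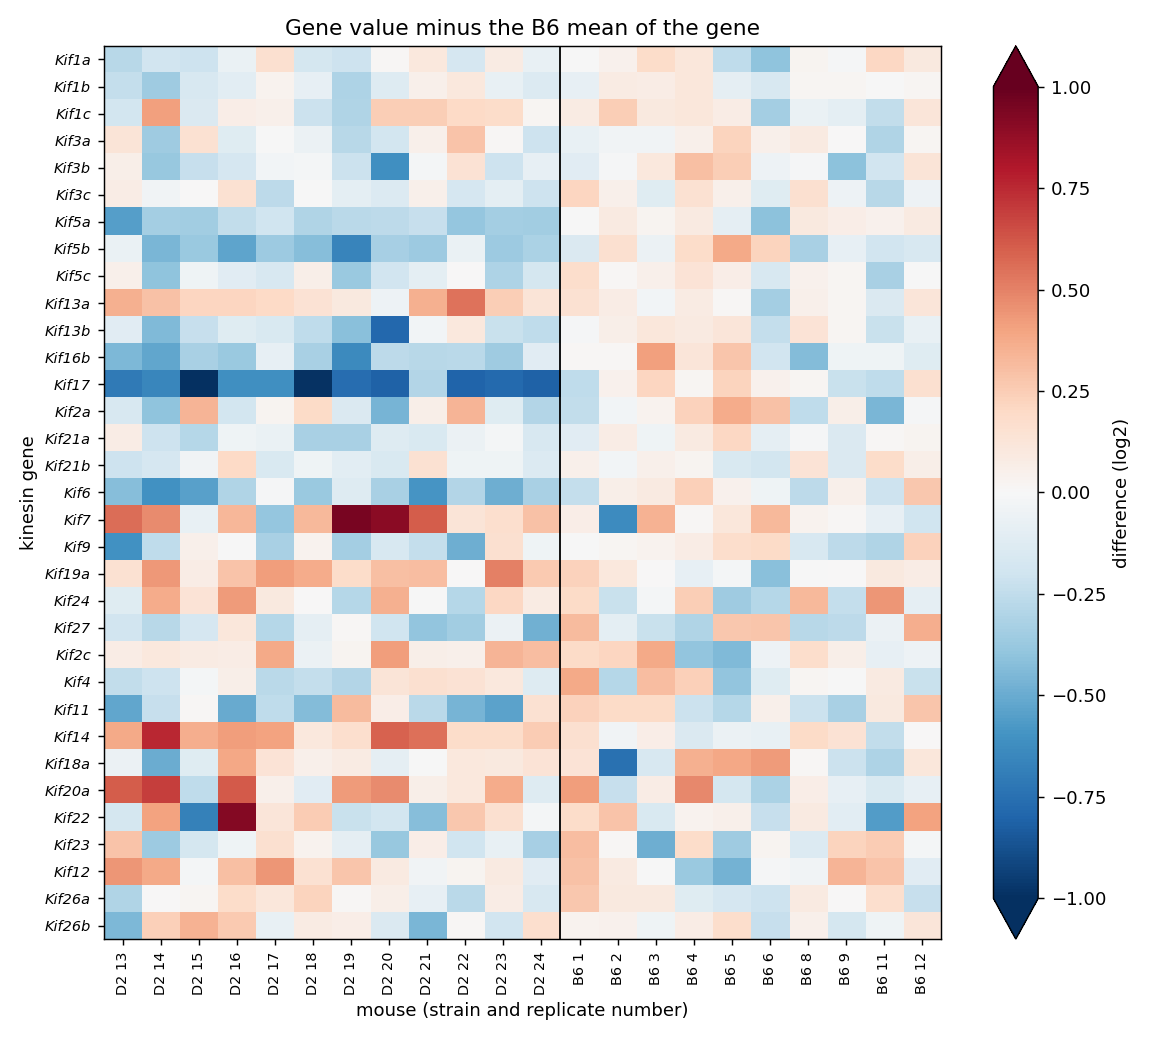
Gene value of each of the 33 kinesins (rows, by role) in each mouse (columns, D2 left and B6 right) minus the B6 mean of that gene, on a log2 colour scale cut at -1 and 1. The row of Kif17 is blue in every D2 mouse, palest in replicate 21.

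At the level of single probesets, 54 of the 796 kept kinesin probesets were called in their own level (6.78%), 50 lower and 4 higher in D2, against 4.07% of the probesets of all tested genes (2.82% lower, 1.26% higher) and 3.91% of all kept probesets. Of these 54, 31 lay in Kif17, Kif5a and Kif5b. The other 30 genes together had 23 called probesets of 697 (3.3%). Those 3 genes were singled out after their values were seen.

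Exon usage was read from the splicing index. On each array the gene value was subtracted from the log2 value of the probeset, so that an even change along the gene cancels. Calls needed an index difference of 0.5 or more beside the adjusted p under 0.05. Of 796 kinesin probesets 15 were called (1.88%), 6 higher and 9 lower in D2, and over all tested genes 1.66% were (0.894% higher, 0.77% lower), so the kinesin share was near the background. They lay in 10 of the 33 genes (30.3%), against 13.9% of all genes, but kinesins had a median of 21 kept probesets and all genes one of 12. The calls fell in the cargo motors Kif17 (5), Kif1c (2), Kif16b, Kif5a, Kif5b and Kif13a, in Kif21a and Kif21b, in Kif7 and in Kif11.

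**Figure D5:**
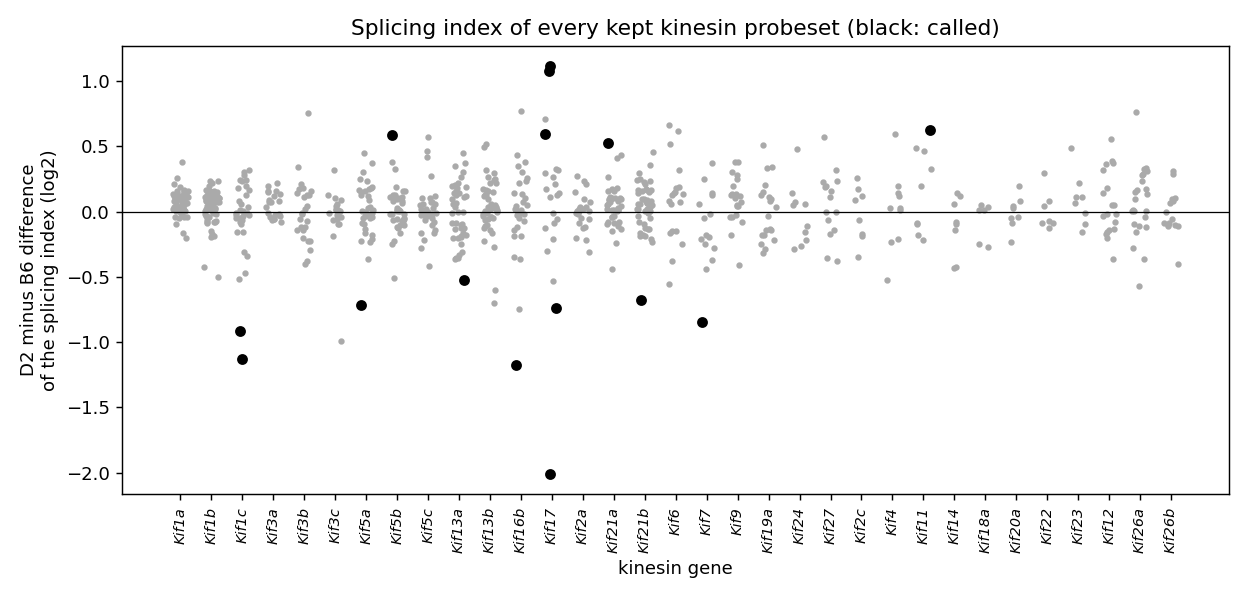
Difference of the splicing index (D2 minus B6, log2, y axis) of every kept probeset of the 33 kinesins (x axis), with called probesets in black. The Kif17 probeset at -2.01 stands below all others, and Kif17 also holds the 2 highest called points, at 1.11 and 1.08.

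Kif17 probeset 4741439 had the largest index difference, -2.01 ± 0.21 (SE, limma adjusted p = 6.9e-07). Its own level was lowest at 1.02 in D2, with a median of 1.59 and a highest value of 2.34, and lowest at 3.57 in B6, with a median of 4.30 and a highest value of 5.26. No D2 mouse came near a B6 mouse, and the index itself did not overlap either, at -2.82 to -1.18 in D2 and -0.68 to 0.98 in B6. Of the 796 kinesin probesets it was the only 1 called without overlap of the index, beside 758 of 236114 (0.321%) over all tested genes. Among called probesets alone this was 1 of 15 for kinesins and 758 of 3929 over all tested genes. The kinesin share was thus not above that of all genes. The D2 mean of 1.61 was close to the filter level of 1.44. The index difference stayed between -2.07 and -1.75 and was called under each of the 8 alternatives that held this probeset.

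The other called Kif17 probesets were 1 with a lower index, 5400105 (-0.74), and 3 with a higher one, 4918255 (1.11), 5350093 (1.08) and 4845980 (0.60). The levels of 4918255 ran from 4.15 to 5.59 in D2 (median 5.005) and from 3.52 to 5.03 in B6 (median 4.73), a difference of 0.37 that was not called (adjusted p = 0.258). The 3 probesets with a higher index were thus not called higher in their own level. Their own differences were 0.37, 0.33 and -0.14, beside a gene difference of -0.74. Where in the gene these probesets lie was not determined, because no coordinates for probesets were used here.

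Kif16b probeset 5069551 had a level of 2.24 to 4.24 in D2 (median 3.34) and of 4.49 to 5.42 in B6 (median 4.95), with no overlap. Its index fell by 1.18 (SE 0.21, limma adjusted p = 0.0021). This probeset fell much further than its gene, whose difference was -0.33.

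Kif1c had 2 probesets with a lower index in a gene whose value did not fall (0.05). Probeset 4983044 had a level of 1.71 to 4.12 in D2 (median 3.37) and of 3.87 to 4.78 in B6 (median 4.41), and its index fell by 1.13 (SE 0.21, limma adjusted p = 0.0021). Probeset 5544731 had a level of 1.42 to 3.17 in D2 (median 2.35) and of 2.29 to 3.79 in B6 (median 3.15), and its index fell by 0.92 (SE 0.20, adjusted p = 0.0126). Both were also called lower in their own level.

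Kif5a probeset 5153763 ran from 7.41 to 8.73 in D2 (median 8.25) and from 8.88 to 9.66 in B6 (median 9.17), so that no D2 mouse reached a B6 mouse. Its index fell by 0.71 (SE 0.15, limma adjusted p = 0.0101), on top of the fall of the gene. With the array median as covariate this index difference was -0.40 and not called (adjusted p = 0.441). Kif21b probeset 4383750 ran from 4.30 to 5.70 in D2 (median 4.91) and from 5.29 to 5.96 in B6 (median 5.66), with an index difference of -0.68 ± 0.13 (SE, adjusted p = 0.0037) in a gene that was not called. Both fell in their own level as well.

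The remaining calls were of probesets whose own level was not called. The index was lower in D2 for Kif7 probeset 4796699 (-0.85) and Kif13a probeset 4383650 (-0.53), both in genes with a higher mean value in D2. It was higher for Kif11 probeset 5291222 (0.63), Kif5b probeset 4724679 (0.59) and Kif21a probeset 4637631 (0.53), all in genes with a lower mean value in D2. In all 5 the index moved against its gene, which follows in part from subtracting the gene value. In the order named, their own differences were -0.49, -0.30, 0.40, 0.23 and 0.39. A fit with the array median as covariate kept the index call of 4 of the 12 probesets described here: 4741439 of Kif17, 5069551 of Kif16b, 4983044 of Kif1c and 4383650 of Kif13a. The other 8 lost it, among them 5544731 of Kif1c (-0.59), 4796699 of Kif7 (-0.47), 4724679 of Kif5b (0.29) and 4637631 of Kif21a (0.30). Since the array median moved with strain, a call lost in this fit does not show that exon usage was alike.

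The partners of the kinesins were read from lists. Of 22 measured light chains, kinesin-14 motors, adaptors and regulators, 1 was called (4.55%, beside 10.8% of all genes), with a median difference of -0.04. Plekhm2, which links Arl8 on lysosomes to kinesin-1, fell by 0.26. The light chains Klc1 (0.05), Klc2 (0.02), Klc3 (0.10) and Klc4 (-0.10), which join cargo to the Kif5 heavy chains, were not called, nor was Kifap3 (-0.13), the third subunit of heterotrimeric kinesin-2. Kifc1 (0.19), Kifc2 (-0.03) and Kifc3 (-0.12), motors that walk to the minus end, were not called either.

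Cytoplasmic dynein, with its activator dynactin, moves cargo in the opposite direction. Of 24 measured genes 4 fell and 20 were not called (16.7% called, beside 10.8% of all genes), with a median difference of -0.12 (all genes -0.05). They were the dynactin subunit Dctn6 (-0.86), the dynein regulator Nde1 (-0.51), the light chain Dynll2 (-0.44) and the intermediate chain Dync1i1 (-0.38). Of 32 tubulins and microtubule-associated proteins 2 fell (6.25%), Map7, which recruits kinesin-1 to microtubules, by 0.38 and the dendritic Map2 by 0.38. Of 20 genes of intraflagellar transport, the cargo train that kinesin-2 pulls in cilia, Ift27 (-0.43) and Ift122 (-0.28) fell (10%), with a median of -0.13.

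Markers of brain cell types gave the setting of these values. Over all genes 10.8% were called, most of them lower in D2 (8.26%). Of 5 neuronal markers none was called, and none had an unadjusted p under 0.05 (limma), with a median of 0.03. Of 5 astrocyte markers Gfap (-0.80) and Aldh1l1 (-0.40) fell and Gja1 (0.28) rose, and Mobp (-0.78) was the called one of 5 oligodendrocyte markers. C1qb fell (-0.90) among 6 microglial markers, and Pecam1 (-0.33) and Slco1a4 (-0.41) among 4 endothelial ones. Of 3 red blood cell markers Hbb-b1 (-4.12) and Alas2 (-0.90) fell, and their mean log2 level was 3.24 to 4.67 in D2 and 5.21 to 5.78 in B6, without overlap. Of 5 markers of tissues other than brain Krt5 rose by 0.47 and Apoa2 fell by 1.24. The part of these cell types in the kinesin differences was not tested.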

How the data were processed

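Arrays of 12 D2 and 10 B6 brains were used. Per the labels, 24 arrays were hybridised and the authors left out 2 that another scanner had read. The log2 values the authors deposited came from RMA. Per the submitters' processing notes, R 2.6.0 and affy 1.12.2 were used. RMA options, probeset definition and genome build are not given in the sources used here. An array has no read depth, and the number of arrays limits the precision. Of 1201338 probesets, 10932 were empty and left out.

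Probesets with a mean at or above the median (log2 1.44) were kept, 595203 in all. Gene values needed 3 kept probesets with 1 symbol. Gene values, splicing index and probeset levels were fitted over the whole table with limma 3.58.1 in R 4.3.3 (D2 minus B6, Benjamini-Hochberg), tested on simulated data first. The kinesin-1 pairs, chosen after their values were seen, were compared by two-sided permutation tests with 100000 resamples (scipy 1.17.1). Figures used matplotlib 3.10.9. Promoters came from RefSeq (GRCm38.p6), where 30 of 37 members had an entry.

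The members and lists were chosen with earlier results of these data known. Every measured kinesin was named. Ranges were given for called members and 9 brain motors fixed by name, and the 12 called probesets with the largest index difference, at most 2 per gene, were described. From each partner list up to 4 called genes were named. Light chains, Kifc genes, Kifap3, Mki67 and Top2a were named outside this rule, after their values were seen. Alternatives covered the filter, the summary over probesets, scaling, file letter and arrays left out.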

Additional observations from a re-analysis of the deposited data

Results flagged for a closer look

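In a group of 10 samples, chance marks about 1 in 20, and the B6 mice were tested for each of the 33 kinesins. For 2 of them, 1 B6 mouse lay apart from the rest, and it was replicate 6 both times. Its Kif5a value was 9.05, with the next at 9.37 and the highest at 9.56. Its Kif19a value was 2.58, with the next at 2.92 and the highest at 3.23. Replicate 6 carries the file letter B, as does replicate 5, the second lowest B6 mouse for Kif5a. The D2 group of 12 was too large for this test.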

How the results depend on the processing

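No paired analysis was possible because the mice of the 2 strains share no replicate number. Of 33 kinesins, 8 were called as reported. The count was 5 with no filter on dim probesets (0 higher, 5 lower), 1 with the array median as covariate (Kif17, -0.62, adjusted p = 0.0034) and 0 on the 4 letter B arrays alone, where limma gave 5 with an unadjusted p under 0.05 and Kif17 was at -0.89. It lay between 6 and 12 under the other 10 alternatives, at 12 with the mean over probesets and at 7 without B6 replicate 6, an alternative chosen after the data were seen. The share called over all genes moved too, from 10.8% as reported. It was 7.75% with no filter, 3.09% with the array median as covariate and 0.468% on the letter B arrays. With the mean over probesets it was 17%, and without B6 replicate 6 it was 10.6%. The index calls numbered 15 as reported, 8 with the array median as covariate, not all of them among the 15, and 5 with an index difference of at least 1. For the 54 probesets called in their own level it was 15 with the array median as covariate. No called gene or described probeset changed direction under an alternative it was measured in, while genes that were not called did, among them Kif13b, Kif9, Kif12 and Kif5c, which reached 0.05, 0.07, -0.14 and 0.08. Of 13 alternatives, Kif17 kept its call in 12 and Kif5a in 11, and Kif5b, Kif6 and Kif19a in 10 each, Kif16b in 8 and Kif13a in 4. Kif14 kept it in 9 of the 12 alternatives that measured it. The cause of these shifts was not tested. The fit with the array median as covariate cannot fully separate that median from strain. Signal near background limits the spindle motors and the ciliary members, among them the called Kif6 and Kif19a.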
